A study of Homo sapiens with 9 samples.

Results

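MALAT1 and NEAT1 are neighbouring genes on human chromosome 11 that make long noncoding RNAs retained in the nucleus. They were taken by symbol, and they are 2 of the 26882 genes, or 5 of the 61177 transcript rows, in the deposited count tables. They were chosen by their names, with measured values of these libraries already known, among them the read counts in A549 and HEK293T with T12, so that contrast is given as a description with no test.

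The libraries were made by CLT-seq, in which an adaptor-flanked oligo(dT) primer starts reverse transcription at poly(A) and the first-strand cDNA is then ligated to a second adaptor and amplified by PCR. Total RNA came from cultures of HEK293T, a human line derived from embryonic kidney and transformed with viral genes, and of A549, an epithelial line from a human lung carcinoma, both wild type per the labels. HEK293T RNA was primed with unanchored primers (T12, T18 and T30, named for their number of T) or with anchored ones, in which the 18 T are followed by V, any base but T (T18V), by V and any base N (T18VN), or by V and 2 such bases (T18VNN). A549 RNA was primed with T12. The series has 9 libraries, of which 7 with read counts were used here, 1 for each of the 6 HEK293T primers and 1 for A549, so no primer and neither line had a counted replicate, and the cell lines differ by 1 library each. The labels name no treatment or clone for either line.

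MALAT1 is a single long transcript found in nuclear speckles, the bodies that hold splicing factors. Its 3′ end is not made by the usual cleavage and polyadenylation: RNase P cuts upstream of a small tRNA-like RNA, mascRNA, and the end left behind folds into a triple helix of U-rich tracts with a short genomic A-rich tract. NEAT1 is made in a short form, which ends in a conventional poly(A) tail, and a long form, which ends in a triple helix like that of MALAT1 and is the scaffold of paraspeckles, nuclear bodies built on proteins such as SFPQ and NONO.

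The 3′ ends and internal runs of A are shown because an oligo(dT) primer can anneal to any of them. In the GENCODE transcript of MALAT1, 8708 nt long, the 59 bases up to mascRNA (positions 8297 to 8355) hold a run of 13 A, in capitals, followed by the mascRNA row itself.
MALAT1 before mascRNA: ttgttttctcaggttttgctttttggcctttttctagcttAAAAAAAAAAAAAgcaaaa
mascRNA: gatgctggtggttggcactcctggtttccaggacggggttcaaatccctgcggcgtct
The run stops 6 bases before mascRNA starts at position 8356. The other run of 8 or more A in MALAT1 is 8 long and starts at position 2427.

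The short form of NEAT1 ends at position 3735, and its last 60 bases hold the polyadenylation signal AATAAA, in capitals, starting 30 bases before the end.
NEAT1 short form, 3′ end: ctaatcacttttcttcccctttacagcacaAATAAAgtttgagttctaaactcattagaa
The short form has no run of 8 or more A within it. The long form has 6, all in the part that it does not share with the short form. They are 11, 14, 14, 9, 10 and 22 long, and the longest, in capitals, starts at position 18046.
NEAT1 long form, run of 22 A: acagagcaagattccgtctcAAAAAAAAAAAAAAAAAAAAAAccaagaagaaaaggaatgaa
NEAT1 long form, 3′ end with its A-rich tract in capitals: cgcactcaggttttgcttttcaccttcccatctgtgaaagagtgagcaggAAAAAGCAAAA
Long transcripts often hold such runs. Of 1470 genes with transcripts of 7 to 10 kb, the length class of MALAT1, 67.9% had a run of 8 or more A and 30.7% one of 13 or more. Of 148 genes at 15 to 30 kb, 78.4% had a run of 8 or more and 15.5% one of 22 or more. These positions describe the reference transcripts, and where reads began within them was not analysed here.

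The priming ends of the primers shared by the comparisons below are given to show what anneals, with the T run in capitals.
T12: atctagcgtagcTTTTTTTTTTTT
T18: atctagcgtagcTTTTTTTTTTTTTTTTTT
The anchored primers carry the T18 sequence with their anchor bases at its 3′ end. In the series text the primer with 18 T followed by VN is listed as T12VN, and it is called T18VN here, as in the sample titles.

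**Figure D1:**
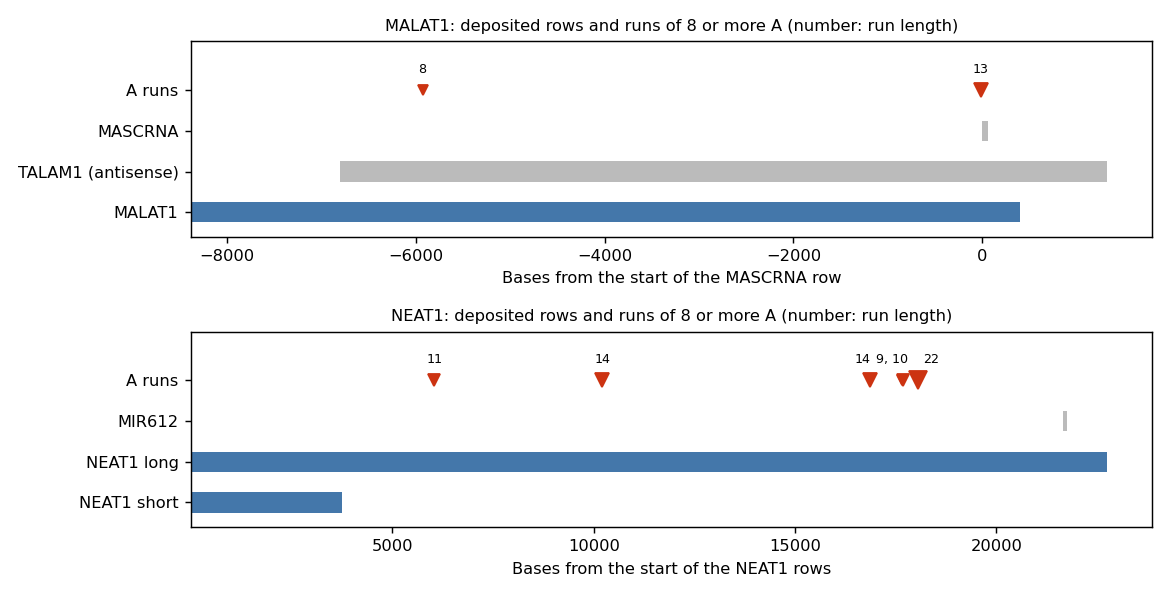
Map of the counted transcript rows of MALAT1 (upper panel, bases from the start of mascRNA) and NEAT1 (lower panel, bases from the start of the rows), with overlapping rows in grey and runs of 8 or more A as triangles numbered with their length. The 6 runs of NEAT1 lie outside its short form, and the run of 13 A in MALAT1 lies next to mascRNA; rows are in hg19 and runs in the GENCODE transcripts, and the 58-base and 100-base rows are drawn with a minimum width.

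In hg19, MALAT1 has 3 rows on the plus strand of chromosome 11 that together span 65265209 to 65273987, of 8779, 8545 and 8302 nt. NEAT1 lies 52197 bases upstream on the same strand, with a short row from 65190269 to 65194003 (3735 nt) and a long row from the same start to 65213011 (22743 nt). Both are noncoding throughout, so no counted base is coding or UTR. The MALAT1 rows of 8545 and 8302 nt each span 8779 bases, so they leave out bases within that span. MALAT1 shares reads with 2 other rows: TALAM1, its antisense transcript (65266783 to 65274903), and mascRNA (65273588 to 65273645, 58 nt). NEAT1 shares its long part with MIR612 (65211929 to 65212028), a microRNA row that had 0 reads in all 7 libraries.

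Read totals ranged from 7491993 (T18V) to 25578543 (T18). Reads on genes were summed over genes from the row kept for each, so a read on overlapping genes was counted more than once. This sum was 11.7% (T30) to 37.6% (T18V) of the total, and 1502281 in A549 at the least. Levels are therefore given as CPM, the read count scaled to a fixed total of reads on genes, where 3 reads correspond to 0.575 to 2.00 CPM. For the labelled lines, all 8 A549 markers were at least 2-fold higher in A549 and all 5 HEK293T markers at least 2-fold lower. Of all genes with at least 20 reads in 1 of the T12 libraries, 31.0% were as far above and 29.2% as far below. The marker lists were chosen with earlier results of these data known, so these counts are a description and no test of the lines. Of 4 markers of other cells, COL1A1 was also higher, at 57 reads for A549 against 15 for T12 in HEK293T (CPM ratio 8.28). PECAM1 and HBB had 0 reads in every library, and PTPRC reached at most 0.192 CPM. Of the lung epithelial markers, SFTPB, SFTPC and NAPSA had 0 reads in every library and NKX2-1 had 0 in A549 and 3.15 to 11.6 CPM in the HEK293T libraries. The labels name no UMI, so intervals below are 95% exact intervals of counting error only.

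MALAT1 was counted with 515 reads in the T12, 731 in the T18 and 796 in the T30 library of HEK293T. The anchored primers gave 1153 (T18V), 3001 (T18VN) and 3347 (T18VNN) reads, and A549 with T12 gave 8524. In CPM the order was T18 (140), T12 (157), T30 (358), T18V (409), T18VN (668) and T18VNN (928), with A549 at 5674. Every anchored library stood above every unanchored one, and A549 stood above all 6.

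Between unanchored primers, T18 was 0.891 times T12, with an interval from 0.795 up to nearly 1. Of all genes with at least 20 reads in 1 of the 2, 29.1% were at least 2-fold apart. T30 was 2.28 times T12 (2.04 to 2.55) and 2.56 times T18 (2.31 to 2.83). T18V, which differs from T18 by the single anchor base, was 2.92 times T18 (2.66 to 3.21) but 1.14 times the unanchored T30 (1.04 to 1.25). T18VN was 1.63 times T18V (1.52 to 1.75), and T18VNN was 1.39 times T18VN (1.32 to 1.46). These are ratios of single libraries, and 32.5% of genes were at least 2-fold apart between T18V and T18, 28.6% between T18VN and T18V and 23.6% between T18VNN and T18VN.

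NEAT1 showed another order. It had 298 reads with T12, 1158 with T18 and 375 with T30, then 599 with T18V, 564 with T18VN and 594 with T18VNN, and 3580 in A549. In CPM these were 91.0, 222 and 169 for the unanchored primers, 213, 125 and 165 for the anchored ones and 2383 for A549. T12 gave the lowest and T18 the highest value of the HEK293T libraries, so the classes overlapped. T18V and T18 did not differ beyond counting error (0.957 times, 0.865 to 1.06), nor did T18VNN and T30.

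**Figure D2:**
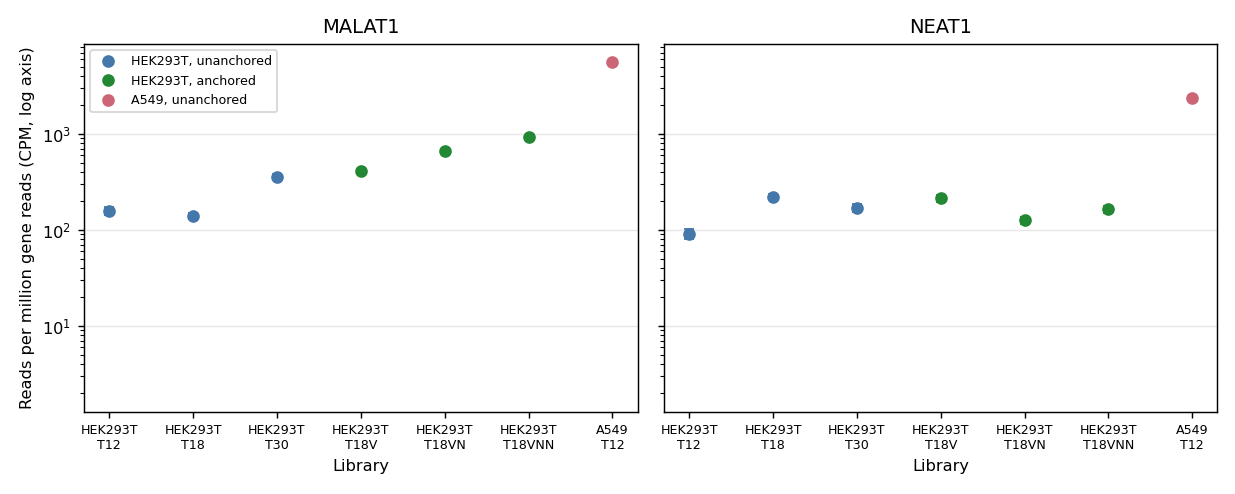
MALAT1 and NEAT1 in each of the 7 libraries in CPM on a log axis, with 1 point for each library and bars for the 95% exact interval of the count. MALAT1 ranged from 140 to 928 across the HEK293T libraries and NEAT1 from 91.0 to 222, and A549 lay above all of them for both genes.

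On the length scale (FPKM), MALAT1 exceeded NEAT1 in every library. The ratio was 4.48 (T12), 1.64 (T18) and 5.50 (T30) without anchors, 4.99 (T18V), 13.8 (T18VN) and 14.6 (T18VNN) with them, and 6.17 in A549. T18V fell within the unanchored range and T18VN and T18VNN above it. The mean log2 ratio was 1.78 ± 0.94 (SD, n = 3) for unanchored and 3.32 ± 0.87 (SD, n = 3) for anchored primers, a difference of 1.55 (two-sided exact permutation test, p = 0.2, 0.4 after Benjamini-Hochberg adjustment over 2 measures). With 3 libraries against 3 the smallest p this test can give is 0.1. Against the short form alone, MALAT1 was below NEAT1 with T18 (0.580 times), equal with T12 (1.00) and highest with T18VN (4.78 times).

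In abundance, MALAT1 ranked 2997 of 26882 genes by FPKM with T12 in HEK293T and 827 with T18VNN, and 94 in A549. NEAT1 ranked between 4351 and 6863 in HEK293T and 700 in A549. Genes with any reads numbered 12843 (T30) to 14264 (T18) in the HEK293T libraries and 13386 in A549.

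The anchored and unanchored primers were compared over all genes in the 6 HEK293T libraries, with primers standing in for replicates (edgeR quasi-likelihood test, Benjamini-Hochberg adjusted p under 0.05). Of 10941 genes tested, 148 (1.35%) were called, 86 higher with anchors (0.786%) and 62 lower (0.567%). With the library total as library size, 2214 of 11300 were called higher and 51 lower. MALAT1 averaged 219 ± 121 CPM (SD, n = 3) without and 668 ± 259 CPM with anchors, and NEAT1 161 ± 65.9 against 168 ± 43.6 CPM. In the edgeR fit the log2 fold change of MALAT1 was 1.43 (SE 0.43), with an adjusted p of 0.136, and was not called. The complete separation of the classes seen for MALAT1, with anchors higher, was shared by 16.8% of the genes tested, and 23.6% were separated in either direction.

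Whether MALAT1 was called depended on the method. DESeq2 gave 1.37 and called it (adjusted p 0.0398), among 589 of 16494 genes called. EdgeR with no low-count filter gave 1.42 and also called it (adjusted p 0.0139), among 561 of 16527. With the library total as library size it was called among 2265 of 11300. The edgeR value of NEAT1 was -0.12 (SE 0.38, adjusted p 0.927), and its sign changed with the setting. The difference between the genes' responses was tested only by the ratio above.

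**Figure D3:**
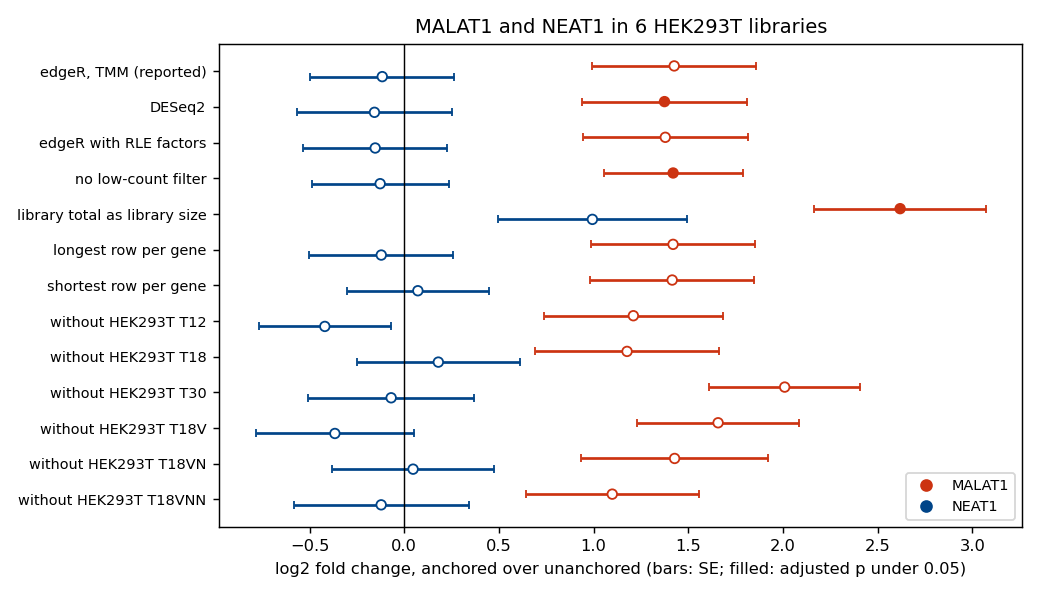
log2 fold change of MALAT1 (red) and NEAT1 (blue), anchored over unanchored, in 6 HEK293T libraries, in the reported edgeR fit and each alternative, with SE bars and filled points where the adjusted p was under 0.05. MALAT1 lies between 1.10 and 2.62 in all settings and is called in 3 of them; NEAT1 lies between -0.42 and 0.99 on both sides of 0 and is called in none.

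The counts of NEAT1 were next divided between its forms. Reads on the short row can come from either form, and those counted on the long row but not on the short one are here called the long-only part (19008 nt, 83.6% of the length). Whether antisense or other overlapping transcripts added to either count was not tested. The short row had 218, 536 and 184 reads with T12, T18 and T30, then 377, 267 and 385 with T18V, T18VN and T18VNN, and 1462 in A549. The long-only part had 80, 622 and 191, then 222, 297 and 209, and 2118 in A549. T12 in HEK293T was the lowest library for the long-only part.

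The long-only share of NEAT1 reads was 26.8% with T12 (Wilson 95% interval 22.1 to 32.1), 53.7% with T18 (50.8 to 56.6) and 50.9% with T30 (45.9 to 56.0). With T18V it was 37.1% (33.3 to 41.0), with T18VN 52.7% (48.5 to 56.7) and with T18VNN 35.2% (31.5 to 39.1). In A549 it was 59.2% (57.5 to 60.8). All 7 shares lay below the 83.6% share of the length, so the short region had more reads per base than the rest in every library, from 3.51 times in A549 to 13.9 times with T12 in HEK293T. The anchored and unanchored means were 41.6% ± 9.59 and 43.8% ± 14.8 (SD, n = 3 each), a difference of -2.20 points (two-sided exact permutation test, p = 0.9, 0.9 after Benjamini-Hochberg adjustment).

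Between libraries 1 primer step apart, the regions of the 2 forms differed by different amounts. From T12 to T18 the long-only part was 4.88 times as high (3.86 to 6.24) and the short row 1.54 times (1.32 to 1.82). From T18 to T18V the long-only part was 0.660 times (0.564 to 0.771) and the short row 1.30 times (1.14 to 1.49). Reads of the short row are part of both forms, so these ratios compare regions of the gene, not amounts of the 2 transcripts. Of all genes, 29.1% were at least 2-fold apart between T18 and T12 and 32.5% between T18V and T18. With 1 library for each primer, primer and library differences cannot be told apart.

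**Figure D4:**
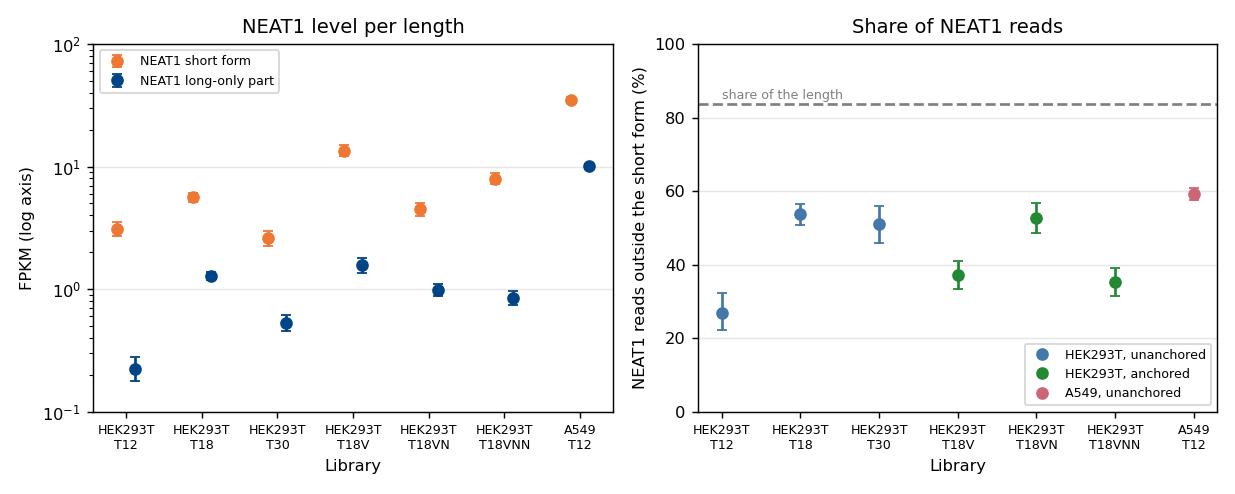
NEAT1 by form in the 7 libraries: FPKM of the short row and of the long-only part on a log axis (left, bars 95% exact count intervals) and the share of NEAT1 reads outside the short row (right, bars 95% Wilson intervals, dashed line the share of the length). The share ranged from 26.8% with T12 to 53.7% with T18 in HEK293T and was 59.2% in A549, below the 83.6% line throughout.

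mascRNA is normally cut off and carries no long poly(A) tail. Its row, inside MALAT1, had 1, 5 and 2 reads with T12, T18 and T30, and 1, 10 and 12 with T18V, T18VN and T18VNN. In A549 it had 216 reads, or 2.53% of the MALAT1 reads (Wilson 95% interval 2.22 to 2.89). With the same primer in HEK293T it was 1 of 515 reads, 0.194% (0.0343 to 1.09). Single HEK293T libraries ranged from 0.0867% (T18V) to 0.684% (T18). Added together, the 6 gave 0.325% (0.229 to 0.461), an interval that treats reads of 6 primers as 1 sample. The row makes up 0.661% of the MALAT1 length. Reads that continue through the row from MALAT1 are counted for it too, so the value does not measure free mascRNA.

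TALAM1 had 87.2% (T30) to 99.4% (A549) as many reads as MALAT1 in the 7 libraries. Its row covers all of MALAT1 but the first 1574 bases, and the tables do not say that strand was used, so the sense and antisense transcripts cannot be told apart. Its edgeR log2 fold change between primer classes was 1.54 (SE 0.42, adjusted p 0.0984). The excess of MALAT1 over TALAM1, a lower bound on the reads in those first bases, was between 0.622% (A549) and 12.8% (T30) of MALAT1, while the bases make up 17.9% of its length.

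With T12, both genes were higher in A549 than in HEK293T. MALAT1 went from 157 to 5674 CPM, a ratio of 36.1 (33.0 to 39.5), and NEAT1 from 91.0 to 2383 CPM, a ratio of 26.2 (23.3 to 29.6). The short row of NEAT1 was 14.6 times as high (12.7 to 16.9) and the long-only part 57.7 times (46.1 to 73.1). The long-only ratio rests on 80 reads in HEK293T T12, the lowest HEK293T library for that part. A549 also exceeded the highest HEK293T library, 6.12 times for MALAT1 and 10.7 times for NEAT1. Against the median HEK293T library the ratios were 14.8 and 14.3. For the short row of NEAT1, A549 was 7.28 times the highest and 10.5 times the median HEK293T library. For the long-only part it was 11.8 and 19.5 times.

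Large differences between these libraries were common. Among 10189 genes that reached 20 reads in either T12 library, 60.2% were at least 2-fold apart on log2(CPM + 1), 31.0% higher in A549 and 29.2% lower. Those 2-fold higher that also stood above all 6 HEK293T libraries, as both members did, were 26.4%. A higher ratio than that of MALAT1 was found for 277 genes (2.72%) and than that of NEAT1 for 376 (3.69%). With 1 library a line, a difference between the lines and one between libraries cannot be told apart, and the same holds in bulk RNA for more RNA per cell and more cells that make it.

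**Figure D5:**
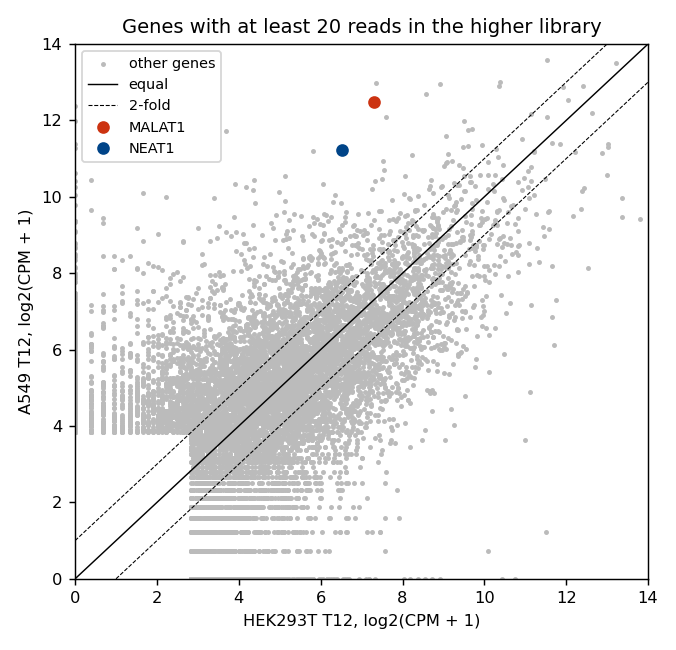
Each point is a gene that reached 20 reads in either library, with its level in HEK293T T12 (x axis) and A549 T12 (y axis) as log2(CPM + 1), the solid line marking equal levels and the dashed lines 2-fold. MALAT1 (red) and NEAT1 (blue) lie far above the upper dashed line, where 277 and 376 genes have higher ratios than they do.

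The counts of listed genes below are to be read beside those over all genes. In A549, 31.0% of those were 2-fold or more above HEK293T T12 and 29.2% as far below it, and with TMM-scaled CPM 2728 were higher and 3454 lower. Between primer classes in edgeR, 1.35% of all genes were called and 15.6% had an unadjusted p under 0.05. Members of each list with at least 20 reads in 1 of the T12 libraries were counted, and the highest and lowest ratios are those among members with at least 50. A gene low in 1 library could thus enter through the other, in the lists and over all genes. Of 38 paraspeckle proteins, 6 were at least 2-fold higher in A549 and 15 at least 2-fold lower, with a median log2 ratio of -0.26 beside 0.02 for all genes. SFPQ, a core paraspeckle protein, had 298 CPM in HEK293T T12 and 101 in A549. NONO, the partner of SFPQ, had 980 and 785. With at least 50 reads, the 3 highest ratios were those of HNRNPF (3.04), HNRNPK (2.63) and RBM3 (2.57), RNA-binding proteins, and the 3 lowest those of the chromatin remodelling subunits SMARCA4 (318 reads against 3, a CPM ratio of 0.0206, 0.00422 to 0.0606) and SMARCB1 (274 against 11) and of RBM14 (136 against 6). A549 lay above every HEK293T library for HNRNPF but not for HNRNPK (545 CPM, highest HEK293T 632) or RBM3 (395, highest HEK293T 569). It lay below every HEK293T library for SMARCA4, SMARCB1 and RBM14. SFPQ and NONO were named after their values were seen. HNRNPK, SMARCB1 and RBM14 overlap other genes. None of the 38 was called between primer classes in edgeR, 8 had an unadjusted p under 0.05, and RBM3 had the value 1.35 (SE 0.30, adjusted p 0.0543).

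Of 29 nuclear speckle proteins, 4 were at least 2-fold higher in A549 and 7 lower, with a median log2 ratio of -0.33, so neither share exceeded that of all genes. With at least 50 reads, the highest ratios were those of CDC5L (4.03), PNN (2.92) and THOC2 (2.59). For these, A549 lay below the highest HEK293T library (40.6 against 61.7 CPM, 52.6 against 68.8 and 226 against 310). The lowest ratios were those of EIF4A3 (0.194), SF3A1 (0.257) and SRSF11 (0.320), for which A549 lay below every HEK293T library. CDC5L and SF3A1 overlap other genes. SRSF1, a splicing factor that binds MALAT1, was the single protein of the list called between primer classes (edgeR log2 fold change 1.80, SE 0.35, adjusted p 0.0347). In the same test, 9 of the 29 had an unadjusted p under 0.05. The level of SRSF1 was 81.3 CPM in HEK293T T12 and 210 in A549, within the range of the HEK293T libraries (51.8 to 362).

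The 12 factors listed for 3′ cleavage and triple-helix stability, mostly RNase P subunits, had no member 2-fold higher in A549 and 8 at least 2-fold lower, with a median log2 ratio of -1.45, beside the 31.0% and 29.2% of all genes. The lowest were POP5 (84 reads in HEK293T T12 and 0 in A549, at least 12.8-fold lower taking 3 reads as the floor), POP7 (1222 against 21 reads) and RPP21 (99 against 2, a CPM ratio of 0.0440, 0.00526 to 0.163). RPP21 has rows on 7 sequences, haplotypes among them, so its count is uncertain. POP4 (0.650 times), RPP40 (0.436) and RPP14 (0.399) had the highest ratios among those named, and RPP40 and RPP14 overlap other genes. A549 lay below every HEK293T library for POP5, POP7 and RPP14. It did not for RPP21 (1.33 CPM, lowest HEK293T 0.900), RPP40 (11.3, lowest HEK293T 7.86) or POP4 (11.3, lowest HEK293T 8.55). For RPP21 and RPP40, T12 was the highest HEK293T library. Between primer classes edgeR called 0 of the 12, and 0 had an unadjusted p under 0.05.

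Of 12 other long noncoding RNAs, 5 were at least 2-fold higher in A549 and 3 lower, beside 31.0% and 29.2% of all genes, with a median log2 ratio of 0.55. The 5 were MIAT (6 reads in HEK293T T12 and 145 in A549), MEG3 (0 and 32, at least 23.2-fold higher with 3 reads as the floor), MIR22HG (0 and 21, at least 15.3-fold higher), DANCR (10 and 27, a CPM ratio of 5.88) and NORAD (220 and 450, a CPM ratio of 4.46), which binds PUMILIO proteins in the cytoplasm. MEG3, MIR22HG and DANCR had under 50 reads and were named after their values were seen. TUG1 (525 and 394 reads) had a CPM ratio of 1.64. SNHG16 (0.264), EPB41L4A-AS1 (0.427) and CYTOR (0.426) had the lowest. A549 lay below every HEK293T library for SNHG16, but not for EPB41L4A-AS1 (95.2 CPM, lowest HEK293T 89.4) or CYTOR (24.0, lowest HEK293T 2.88). MIAT, MEG3, MIR22HG, DANCR, SNHG16 and EPB41L4A-AS1 overlap other genes. Of 14 tested between primer classes, edgeR called 0, and 1 had an unadjusted p under 0.05.

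Genes were ranked by how closely their levels followed those of each member, as the root mean square difference of centred log2(CPM + 1), among genes with a mean of at least 10 CPM. Over all 7 libraries, where the A549 value weighs most, TALAM1, which shares the reads, was closest to MALAT1 (0.07), then CYB5A (0.43) and PLEKHA2 (0.47) of 8352 genes. NEAT1 came 228th for MALAT1, at 0.99. Closest to NEAT1 were ATP1B1 (0.19), CCPG1 (0.23) and SMIM14 (0.28), and MALAT1 came 747th. Over the 6 HEK293T libraries, MALAT1 was closest to TALAM1 (0.07), DDX23 (0.25) and GPC3 (0.31), and NEAT1 to STRBP (0.11), CMTM6 (0.14) and KLF3 (0.14). There NEAT1 came 4003rd of 7873 genes for MALAT1, near the middle of the list, and MALAT1 came 6931st for NEAT1.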

How the data were processed

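The members and gene lists were chosen with earlier results of these data known. The authors deposited read counts for each RefSeq transcript row of 7 libraries, in tables with the column layout of RSeQC, together with FPM, a signal that scales the deposited count to the library total, and FPKM. Per the submitters' processing notes, FastQC 0.11.8, cutadapt 2.10, Trimmomatic 0.39, HISAT2 2.2.1 and SAMtools were used with GRCh37 (hg19). The use of strand and the treatment of reads with several matches are not given in the sources used here, and a read is counted for each row it overlaps.

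Rows were matched to symbols by accession (60809 of 61177, 99.4%), and the row with most reads was kept for each gene. Sequences came from GENCODE transcripts (GRCh38) and the series text. CPM used reads on genes. Counts were tested with edgeR 4.0.16 (TMM, filterByExpr, quasi-likelihood test), checked on simulated data, with DESeq2 1.42.0 as an alternative, in R 4.3.3; exact tests and intervals used SciPy 1.17.1. Ratios of libraries have exact conditional intervals. With 1 library for each primer, p-values measure the spread between libraries, in which primer and library differences cannot be told apart. Named were the members, overlapping genes, the 3 most alike genes, the 3 highest and 3 lowest A549 ratios of each list with at least 50 reads, and list genes called between primer classes. Poly(T) length and gene body coverage files were not used here.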

Additional observations from a re-analysis of the deposited data

How the results depend on the processing

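Between primer classes, the reported edgeR fit called 148 of 10941 genes, DESeq2 589 of 16494 and edgeR with no low-count filter 561 of 16527. Leaving out each library in turn gave 46 to 111. Leaving out T18 (85), T30 (56), T18V (64) or T18VNN (46) moved the count by over 1.5 times. MALAT1 was called with DESeq2 (log2 fold change 1.37), with no filter (1.42) and with the library total as library size (2.62), and its log2 fold change ranged from 1.10 to 2.01 with each library left out. The library total moved the median of all genes by 1.08, and MALAT1 lay 1.54 above that median. NEAT1 changed sign with the library total (0.99, or -0.08 relative to the median) and the shortest row (0.072), and ranged from -0.42 to 0.18 with each library left out. The A549 over HEK293T ratio of MALAT1 was 28.1 by library total, 29.9 by TMM-scaled CPM and 14.8 against the median HEK293T library; that of NEAT1 was 20.4, 21.7 and 14.3, and 14.6 for its short row. TMM scaling moved the median log2 ratio of all genes from 0.02 to -0.24 and the higher share of the 2-fold genes from 51.5% to 44.1%. The anchored minus unanchored difference in the NEAT1 long-only share ranged from -10.7 to 2.75 points with each library left out, and that in the log2 MALAT1 over NEAT1 ratio from 1.01 to 2.05. The cause of these changes was not tested. No paired analysis was possible because each primer had 1 counted library, and the counted T12 libraries of HEK293T and A549 share no replicate number. Depth limits mascRNA most, with 12 reads or fewer in every HEK293T library.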
